A study of Rattus norvegicus with 12 samples.

Results

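Between 2 h and 4 h of forskolin some transcripts that were raised at 2 h fell in the F11 cells, while others rose. Id3, Junb, Id1 and Btg2, raised at 2 h, fell 3.31-fold to 4.84-fold, while Vip, Slit2 and Rabgap1l rose 3.06-fold to 4.9-fold. Fst and Crem, already high at 2 h, rose 4.63-fold and 3.49-fold further. This step was taken as the difference of the log2 ratio of forskolin over reference between the 3 arrays of 4 h and the 3 arrays of 2 h, 6 of the 12 arrays of the series. The sign, green forskolin over red reference, is opposite to that of the authors' deposited values, which run as red over green. All 41012 distinct non-control probes were considered, of which 20631 were measured above background and gave 17802 genes or unnamed transcripts for the test.

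F11 is a fusion of rat neurons of the dorsal root ganglion with a mouse neuroblastoma line and serves as a model of sensory neurons. The labels call the cells neuroblastoma cells. All cells, those of the reference included, had 3 h in medium with 0.5% serum. One channel of each array (green, Cy3) held RNA of cells then given 10 µM forskolin for 2 h, 4 h, 24 h or 48 h, with 3 samples per time, and the other (red, Cy5) held RNA of cells given none. No control without forskolin was matched to each time, so time in low serum and time in forskolin cannot be told apart. Nothing states whether the 3 samples of a time were separate cultures, so the p-values cover only the spread among these 3, and that spread may be technical. The line carries mouse genes as well, and their part in the signal of the rat probes was not tested.

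Forskolin activates adenylyl cyclase, and the cyclic AMP it makes releases the catalytic subunits of protein kinase A, which phosphorylate the transcription factor CREB at cyclic AMP response elements (CREs). The immediate early genes that follow, such as the Fos and Jun families, the Nr4a receptors and the Id genes, need no new protein and many of their messages are short-lived. Their products, along with repressors such as the short form of Crem and phosphatases such as Dusp1, act on the genes that come next, among them those for neuropeptides.

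Same-numbered samples of every time shared a slide, and the position on the slide followed the time on all 3 slides, so position and time cannot be told apart. On the 6 arrays 19889 to 20907 green spots and 20913 to 23285 red spots were well above background, and no more than 1 green and 2 red spots were saturated. Of 10 neuronal markers, 9 were above background on all 6 arrays, Prph, Gap43 and Nefm among them. Of 7 glial markers only Sox10 was, and Gfap, S100b, Mbp and Aqp4 were above background on none. Of 6 fibroblast markers Col1a1 and Col1a2 were above background on all 6 and Col3a1, Dcn and Lum on none, and of 5 endothelial markers Vwf was and Pecam1 and Tek were on none. Of 6 leukocyte markers none was above background on all 6 arrays, and 4 were on none. The summed green signals moved little on the log2 scale, from 16.46 at 2 h to 16.4 at 4 h for the neuronal markers, 9.18 to 9.15 for the glial, 9.96 to 9.89 for the fibroblast, 8.76 to 8.74 for the leukocyte and 8.83 to 8.8 for the endothelial ones. Their part in the results was not tested.

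With limma and Benjamini-Hochberg adjustment over the 17802 genes, 2783 were called at an adjusted p under 0.05, 15.6% of those tested. Of these 988 were higher at 4 h (5.55% of genes tested) and 1795 lower (10.1%). Arrays scaled to the spike-in control RNAs, an alternative chosen after seeing the data, turned that split, with 464 higher and 167 lower. This is because all 10 spike-ins, which share these arrays, read lower at 4 h, by a median of -0.17. The median of all genes moved from -0.008 to 0.16. By array, the median deviation of the spike-ins was 0.28, 0.072 and -0.036 at 2 h and 0.059, -0.137 and -0.11 at 4 h. The times thus overlap in this measure, a limit on every result with spike-in scaling below. Only 32 genes were called and at least 2-fold higher (0.18%) and 50 called and at least 2-fold lower (0.281%). In each of these 82 genes the 3 values at 4 h lay apart from the 3 at 2 h. Over all genes tested the values lay apart and higher at 4 h in 15.5% and lower in 17.4%, and a call with a 2-fold step nearly fixes it, so nothing is read from this count or from those like it below. All 82 kept their call and their direction under every alternative, spike-in scaling and median centring included. The size of the set did depend on the processing. It was 26 higher and 48 lower without background correction, and 86 and 104 with a background offset of 0. With the scanner software's processed signals it was 148 and 219. These signals also skip the loess step used here, so background correction and normalisation cannot be told apart in them.

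**Figure D1:**
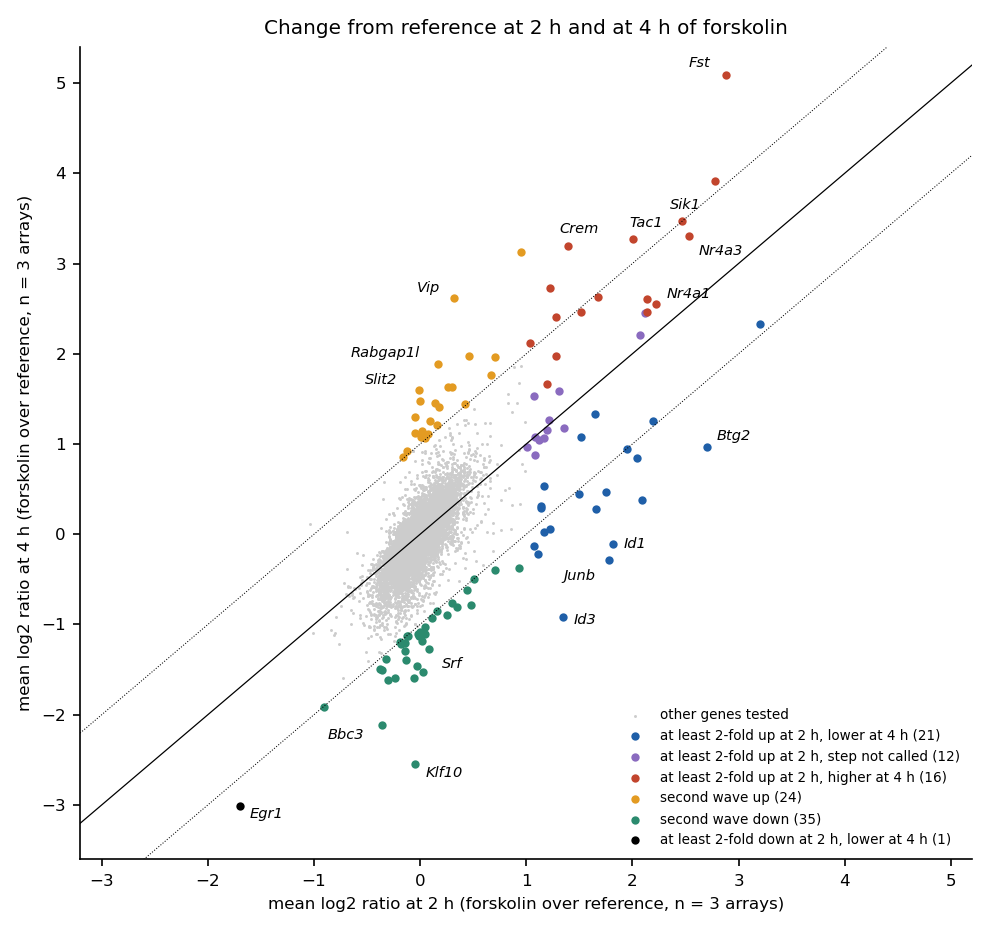
Mean log2 ratio of forskolin over reference at 2 h (horizontal) and 4 h (vertical) for the 17802 genes, n = 3 arrays per time. The solid line marks equal ratios and the dotted lines a 2-fold difference. Most genes lie in the grey cloud around 0, with Vip, Slit2 and Rabgap1l above it, Klf10, Bbc3 and Srf below it, and the genes raised at 2 h spread from Fst at the top to Id3, Junb and Id1 under 0.

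The 82 genes fell into few patterns. At 2 h, 49 genes were called and at least 2-fold above the reference (0.275%), and they are called the first wave here. Of these, 21 then fell, 16 rose further and 12 had no called step. A further 24 genes rose at least 2-fold, were above the reference at 4 h and had changed less by 2 h than from 2 h to 4 h, and they are called the second wave up. The mirror pattern held in 35 genes, the second wave down. The only gene that fell at least 2-fold and was already at least 2-fold below the reference was Egr1. Since the 2 h arrays enter both the choice of the first wave and the step, these counts are a description.

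The 21 first-wave genes that fell had a median log2 ratio of 1.65 at 2 h and 0.38 at 4 h. In all 21 the 3 values at 4 h lay below the 3 at 2 h, as their call makes likely. At 4 h, 4 of them were still at least 2-fold above the reference, 14 were called above it and 3 called below it. In 14 the fall was at least 2-fold, and 16 of the 21 had a symbol.

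Id3 fell furthest of the 21, and 2 other inhibitors of DNA binding, which pair with basic helix-loop-helix factors and keep them off DNA, fell with it. Id3 read 1.17, 1.48 and 1.4 on the 3 arrays of 2 h and -0.9, -0.96 and -0.91 on those of 4 h, from a probe at chr5:154945376-154945435 of build rn3. All 3 values at 4 h were below the reference and none overlapped with 2 h, a difference of -2.28 ± 0.07 (SE, 4.84-fold lower, limma adjusted p = 3.1e-10). Its other 2 probes differed by -2.17 and -2. Id1 went from 1.85, 1.83 and 1.77 to -0.03, -0.16 and -0.13, no longer called apart from the reference (adjusted p = 0.061, difference -1.92 ± 0.06, adjusted p = 3.1e-10). Id2 went from 1.76, 1.74 and 1.75 to 0.44, 0.51 and 0.44 and so stayed above the reference on every array (difference -1.28 ± 0.07, adjusted p = 3.2e-08). Smad7, an inhibitor of TGF-beta receptors that their signal induces, went from 1.07, 1.13 and 1.13 to -0.26, -0.16 and -0.26, with no overlap (difference -1.34 ± 0.08, adjusted p = 1.3e-07). Id4, of the same family, did not follow: it read 2.19, 2.05 and 1.97 at 2 h and 2.3, 2.23 and 2.11 at 4 h, an overlapping pair of groups (difference 0.14 ± 0.07, adjusted p = 0.25).

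The AP-1 genes of the first wave, whose products dimerise to bind DNA, fell as well. Junb went from 1.84, 1.77 and 1.72 to -0.21, -0.34 and -0.3, below the reference on all 3 arrays (probe at chr19:24837607-24837666, difference -2.06 ± 0.1, 4.17-fold lower, adjusted p = 2.1e-08). Jun went from 1.19, 1.07 and 0.95 to 0.04, -0.24 and -0.19, not called apart from the reference (adjusted p = 0.065, difference -1.2 ± 0.08, adjusted p = 3.1e-07). Fos went from 1.16, 1.33 and 1.17 to -0.03, 0.12 and 0.09, again with no overlap (difference -1.16 ± 0.08, adjusted p = 2.4e-07). That ratio holds a red rise of 0.25, and the normalised green channel of Fos alone fell 1.88-fold. Its probe was dim, with a mean green intensity of 126 at 2 h and 75 at 4 h over a local background of 50, and the background offset compresses the ratios of dim probes. Fosb differed by 0.07 (adjusted p = 0.47) and Fosl2 by 0.22 (adjusted p = 0.082). Of the 16 measured AP-1 and ATF factors 7 fell and 1, Fosl1, rose, and 4 and 0 with spike-in scaling. The green signal of Fosl1 was well above background on no array of 2 h and on all 3 of 4 h, at least 1.13-fold higher (normalised green log2 means 6.3 and 6.48).

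Btg2, an antiproliferative cofactor of mRNA deadenylation, had the highest ratio at 2 h of the falling genes but for Bhlhe41, with 2.85, 2.68 and 2.56, and kept 1.11, 0.92 and 0.88 at 4 h. It was thus lower on each array but still near 2-fold above the reference (difference -1.73 ± 0.09, 3.31-fold lower, adjusted p = 3.1e-08). Klf4, a zinc finger factor of growth arrest, went from 1.86, 1.55 and 1.58 to 0.45, 0.18 and 0.21 (difference -1.38 ± 0.1, adjusted p = 5.3e-07). Dusp1, the phosphatase that switches off MAP kinases, went from 2.05, 1.83 and 2.23 to 0.97, 0.7 and 0.88 (difference -1.19 ± 0.11, adjusted p = 9.8e-06). Neither Klf4 nor Dusp1 overlapped between the times, and both stayed above the reference at 4 h. Gadd45g, a stress sensor, went from 1.1, 1.23 and 1.18 to -0.01, 0.02 and 0.09, not called apart from the reference (adjusted p = 0.6). Adm, which encodes the peptide adrenomedullin, went from 1.98, 2.01 and 1.87 to 0.93, 0.97 and 0.92. Gadd45g fell by 1.14 and Adm by 1.01 on the log2 scale.

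Some first-wave genes fell and still stayed well above the reference. Bhlhe41, a repressor of the clock, had the highest ratio of the 21 at 2 h, with 3.24, 3.24 and 3.14, and read 2.43, 2.29 and 2.28 at 4 h, lower on each array (difference -0.87 ± 0.06, adjusted p = 6.9e-07). Sgk1, a kinase that responds to serum and steroids, had means of 2.19 at 2 h and 1.25 at 4 h (difference -0.94). Tob1, a relative of Btg2, went from a mean of 1.52 to 1.08 (difference -0.44 ± 0.1, adjusted p = 0.0088), a call lost with spike-in scaling (adjusted p = 0.27) and with median centring (adjusted p = 0.15). Nr4a2, a nuclear receptor without a known ligand, read 1.65, 1.62 and 1.67 at 2 h and 1.35, 1.24 and 1.41 at 4 h (difference -0.32 ± 0.1, adjusted p = 0.045). That call was lost when any 1 of the 6 arrays was left out, with offset 0, the processed signals, the deposited values or no filter, with spike-in scaling (adjusted p = 0.55) and with median centring (adjusted p = 0.52). Unnamed transcripts made up the other 5 of the 21, with falls of 0.63 to 1.72. The largest of these falls, that of AA817984, holds a red rise of 0.51 beside a green change of -1.2.

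The 16 genes of the first wave that rose further went from a median of 1.84 to 2.62. All 16 had their 3 values at 4 h above the 3 at 2 h, as their call makes likely, and 8 rose at least 2-fold. They held feedback regulators of cyclic AMP signalling, secreted factors and the receptors Nr4a1 and Nr4a3, while Nr4a2 was among those that fell.

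Fst encodes follistatin, a secreted protein that binds and blocks activin, and it had the highest ratio of all 16 at both times. Its values were 2.93, 2.82 and 2.89 at 2 h and 5.14, 5.08 and 5.05 at 4 h, from a probe at chr2:46471460-46471519. The groups were far apart, by 2.21 ± 0.06 (4.63-fold higher, adjusted p = 9.4e-11). That ratio holds a rise in the reference channel. The mean red intensity of the probe was 549 on the 2 h arrays and 1366 on the 4 h arrays, while the green went from 1273 to 13578. The normalised green channel alone rose 11.2-fold, a log2 difference of 3.49, and the red channel by 1.28. The other probe of Fst had a log2 ratio difference of 2.91 and a green difference of 3.25, with a red difference of 0.34. The cause of the red rise was not tested.

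Crem, which encodes activators and repressors at CREs, read 1.62, 1.27 and 1.29 at 2 h and 3.24, 3.21 and 3.14 at 4 h, each 4 h value above each 2 h value (difference 1.8 ± 0.09, adjusted p = 3.8e-08). Its red channel moved too, by 0.54 against 2.35 in green, and its other probe had a ratio difference of 1.72. Rgs2, which speeds the shut-off of G proteins, read 2.91, 2.75 and 2.68 and then 3.91, 3.93 and 3.92 (difference 1.14 ± 0.06, adjusted p = 5.1e-08). Sik1, a kinase that CREB induces and that holds back the CREB coactivators, read 2.75, 2.42 and 2.24 and then 3.64, 3.44 and 3.32 (difference 1 ± 0.12, adjusted p = 5.8e-05). All 3, which bear on cyclic AMP signalling itself, were thus higher at 4 h than at 2 h without overlap.

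Nr4a3 read 2.73, 2.48 and 2.37 at 2 h and 3.43, 3.17 and 3.29 at 4 h (difference 0.77 ± 0.09, adjusted p = 5.3e-05). Its 3 probes did not move alike, the others differing by 0.34 and, for a dim one, -0.71, and the mean over its probes was not called. Nr4a1 read 2.28, 2.26 and 2.1 and then 2.68, 2.49 and 2.47, a small step without overlap (difference 0.33 ± 0.08, adjusted p = 0.0091), which median centring did not call. Tac1, the precursor of substance P, read 2.29, 1.82 and 1.91 and then 3.38, 3.16 and 3.26, so that every 4 h array was higher (difference 1.26 ± 0.1, adjusted p = 1.3e-06). Gprc5b, an orphan G protein-coupled receptor, and Ier3, an early gene tied to survival, rose by 1.13 ± 0.12 and 1.08 ± 0.08. Bambi, a decoy receptor of the TGF-beta family, rose by 0.31 ± 0.08 (adjusted p = 0.019), a call lost without array 2 or 3 of 2 h or array 1 of 4 h and with median centring (adjusted p = 0.36). The remaining symbols were Prickle1 and Tent5a at 0.94, Arl4a at 0.7 and Sstr1 at 0.46.

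The 12 first-wave genes without a called step had medians of 1.19 at 2 h and 1.17 at 4 h, with differences between -0.2 and 0.46. Beside Id4 they were Cebpb, Midn, Mat2a, Cbx8, Cited2 and Gem, and 5 unnamed transcripts. Cebpb, a leucine zipper factor, read 1.23, 1.07 and 0.9 at 2 h and 1.76, 1.42 and 1.39 at 4 h, the higher of each slide's pair (differences 0.54, 0.35 and 0.49). Its adjusted p was 0.071, and 0.00057 with the slide as a replicate block, which also called AA859348 higher and Cited2 lower, so that 3 of the 12 had a called step in that fit. Gem, a small GTPase, read 1.18, 1.04 and 1.02 and then 0.74, 0.81 and 1.09, which overlap.

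The 24 genes of the second wave up had a median log2 ratio of 0.12 at 2 h and 1.43 at 4 h, and 13 had a symbol. All values at 4 h were above all at 2 h in every one of them, which their choice by a called 2-fold step nearly fixes. Vip, which encodes vasoactive intestinal peptide, a neuropeptide that sensory neurons make after injury, read 0.41, 0.31 and 0.25 at 2 h and 2.61, 2.56 and 2.67 at 4 h (probe at chr1:36372337-36372396). It was barely above the reference at 2 h and far above it on all 3 arrays of 4 h (difference 2.29 ± 0.06, 4.9-fold higher, adjusted p = 5.3e-11). Its red channel moved by 0.31 and its green by 2.61, or 6.11-fold. Rabgap1l, a GTPase activator of membrane traffic, read 0.18, 0.11 and 0.21 and then 1.8, 1.83 and 2.02 (difference 1.72 ± 0.06, adjusted p = 1.5e-09), and its other probe differed by 0.52. Slit2, an axon guidance ligand of the Robo receptors, read 0, -0.12 and 0.1 and then 1.57, 1.62 and 1.63 (difference 1.61 ± 0.08, adjusted p = 3.2e-08). Slit2 was thus at the reference at 2 h and near 3-fold above it at 4 h.

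Ptges, an enzyme of prostaglandin E synthesis, read 0.4, 0.25 and 0.27 at 2 h and 1.71, 1.46 and 1.73 at 4 h (difference 1.33 ± 0.11, adjusted p = 2.7e-06). Nefl, the light neurofilament chain, read 0.39, 0.74 and 0.88 and then 1.81, 1.71 and 1.77, a tight group at 4 h above a spread one at 2 h (difference 1.1 ± 0.1, adjusted p = 5.3e-06). Pde10a, a phosphodiesterase that degrades cyclic AMP and cyclic GMP, read -0.1, 0.21 and -0.03 and then 1.17, 0.89 and 1.18 (difference 1.05 ± 0.1, adjusted p = 9.8e-06). Its green channel was above background on 2 of the 3 arrays of 2 h. Fgfr2, a fibroblast growth factor receptor, rose by 1.31 ± 0.08 from 1 probe, while its other probe differed by -0.11. Tacr1, the receptor of substance P, was well above background in green on no array of 2 h and on all 3 of 4 h, so its green signal was at least 2.06-fold higher (normalised green log2 means 6.13 and 7.23). The bound is of the green channel alone and takes, on each 2 h array, the higher of the probe's own signal and the lowest signal well above background. The ratios of Tacr1 had means of 0.05 and 1.07 (adjusted p = 5.2e-08). Pierce1 rose by 1.36, Arhgap18 by 1.17, Etv2 and Sv2c by 1.04 and Mcam by 1.02. The other probe of Mcam differed by 0.48. The largest rise among unnamed transcripts was 2.18, for AA858471, whose probe lay 1523 bases from that of Fst.

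Of the 41 transcripts without a symbol in the patterns above and below, 9 had a probe within 5 kb of that of a member with a symbol, on rn3. Beside AA858471 these were BF564195 near Crem, AA817984 near Dusp1, AB096137 near Bhlhe40, AW144489 near Klf9, AW144721 near Enc1, RGD1560523_predicted near Mat2a, AF468681 near Id4 and AA858950 near Rgs2. The first 5 of these moved in the direction of their neighbour. The brighter probe of AA858950, without a called step at 0.06, did not move as Rgs2 did, but its other probe differed by 0.48. In all, 17 of the 82 genes had a probe within 5 kb of another of the 82, so the 82 overstate the number of separate genes if neighbours share a transcript, which was not tested.

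The 35 genes of the second wave down stood at a median of -0.02 at 2 h and -1.18 at 4 h, and 18 had a symbol. Several encode transcription factors. Klf10, a zinc finger factor that TGF-beta induces, read 0.01, -0.07 and -0.08 at 2 h and -2.48, -2.57 and -2.61 at 4 h (probe at chr7:73842027-73842086). It left the reference within the step and was the largest fall of all named genes (difference -2.5 ± 0.07, 5.67-fold lower, adjusted p = 5.3e-11). Its other probe, with a mean green intensity of 73 over a background of 49, differed by -0.46. Srf, the serum response factor, read 0, -0.01 and -0.08 and then -1.43, -1.48 and -1.46, without overlap (difference -1.43 ± 0.05, adjusted p = 1.5e-09). The other 3 probes of Srf differed by -0.7 to 0.19.

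Atf3, a stress and injury factor, read 0.46, 0.54 and 0.44 at 2 h and -0.85, -0.76 and -0.75 at 4 h. It therefore crossed from above to below the reference on every slide (difference -1.26 ± 0.06, adjusted p = 2.5e-08). Klf9 crossed in the same way, from 0.41, 0.37 and 0.25 to -0.86, -0.76 and -0.81 (difference -1.15 ± 0.08, adjusted p = 3e-07). Its other probe differed by only -0.32. Dusp5, a phosphatase of nuclear ERK, and Bhlhe40, a clock repressor, crossed too, falling by 1.07 and 1.01. Ccnl1, a cyclin of splicing kinases, fell from 1.08, 0.84 and 0.86 to -0.28, -0.39 and -0.44 (difference -1.3 ± 0.08, adjusted p = 1.7e-07).

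Bbc3, which encodes the pro-apoptotic protein PUMA, read -0.79, -0.12 and -0.17 at 2 h and -2.17, -2.11 and -2.07 at 4 h. Its first 2 h array stood apart from the others, yet above all 3 of 4 h (difference -1.75 ± 0.13, 3.37-fold lower, adjusted p = 7.8e-07). Enc1, an actin-binding protein of nervous tissue, fell by 1.53 ± 0.09, with its other probe at -0.56. P2ry6, a receptor for UDP, fell by 1.26 ± 0.07 and Dok4, an adaptor of Ret signalling, by 1.15 ± 0.05. Dkk1, a secreted Wnt antagonist, fell by 1.01. Further members with a symbol, named after their values were seen, were Myt1l at -1.15, Cxcr4 at -1.14, Klf7 at -1.06, E2f8 at -1.05, Pim3 at -1.04 and Aspm at -1.01. The other probe of E2f8 differed by only -0.21, that of Cxcr4 by -0.99 and that of Klf7 by -1.07.

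Egr1, an immediate early factor that many stimuli raise, was low throughout. It read -1.79, -1.62 and -1.71 at 2 h and -3.02, -3.11 and -2.91 at 4 h, so that all arrays were under the reference and the 4 h ones lowest (difference -1.31 ± 0.08, adjusted p = 1.2e-07). Arc, a synaptic activity gene, was also under the reference at 2 h, with -0.84, -0.58 and -0.77, and lower at 4 h with -1.58, -1.66 and -1.52 (difference -0.86 ± 0.07, adjusted p = 2.3e-06).

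**Figure D2:**
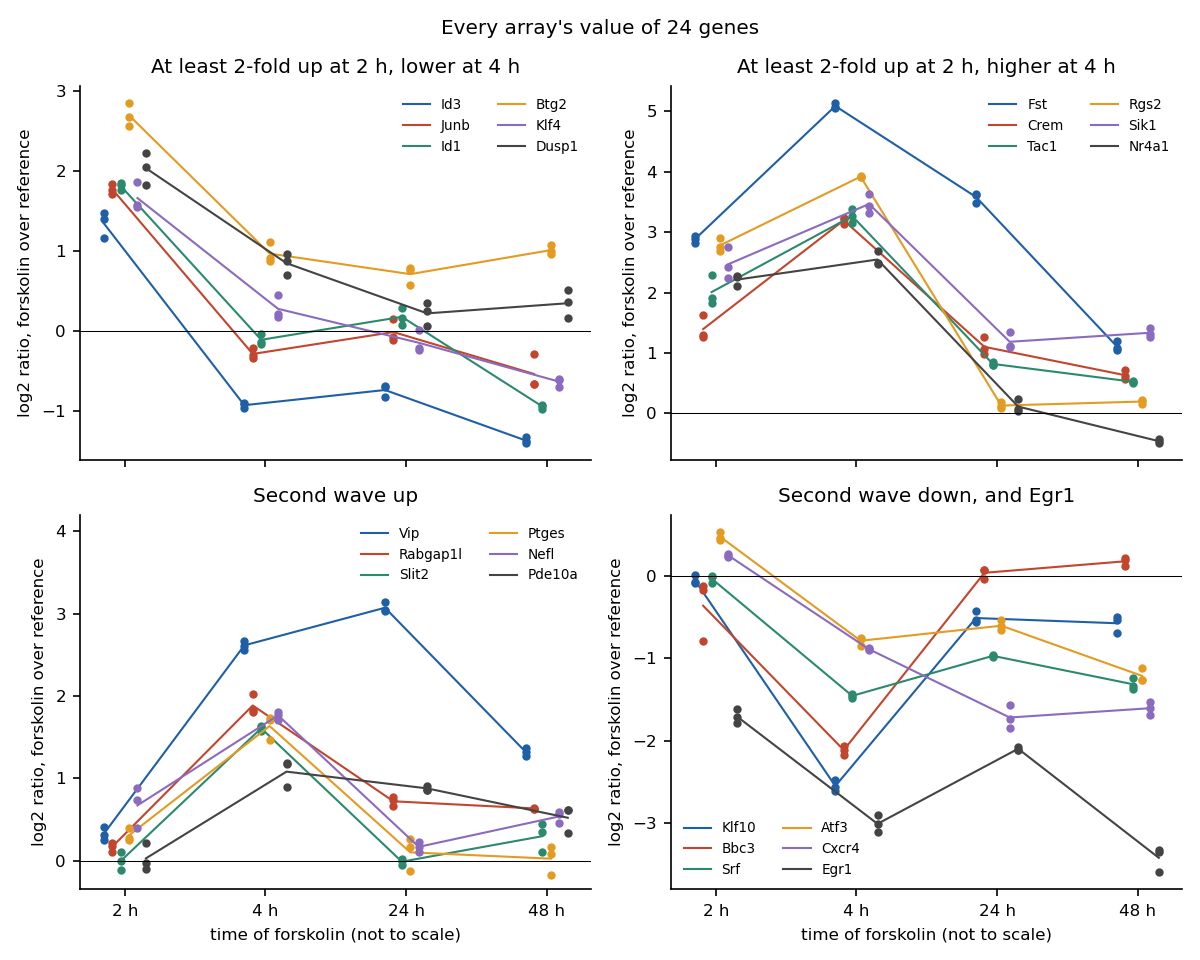
Log2 ratio of forskolin over reference on each array (points, n = 3 per time) with the mean (lines) at 2 h, 4 h, 24 h and 48 h, for 6 genes of each of 3 patterns and, in the last panel, 5 genes of the second wave down with Egr1. The times are evenly spaced and not to scale. Id3, Junb and Id1 drop to or under 0 by 4 h, Fst peaks near 5.09 at 4 h, Vip stays up at 24 h, and Klf10 dips to -2.55 at 4 h and is at -0.51 at 24 h.

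After 4 h most of these genes moved back toward the reference, many of them only in part. All 16 first-wave genes that had risen further were called lower at 24 h than at 4 h, with a median of 0.55 at 24 h and 0.3 at 48 h. Of the 24 genes of the second wave up, 19 were lower at 24 h than at 4 h and 3 higher. Vip was one that went on, to 3.07 at 24 h before 1.32 at 48 h, whereas Slit2 was back at -0.02 and Ptges at 0.1 by 24 h. Of the 35 genes of the second wave down, 29 were called higher at 24 h than at 4 h and 1 lower. Bbc3 returned to 0.04 and Enc1 and P2ry6 passed the reference to 0.48 and 0.9, while Cxcr4 went on down to -1.72. The 21 first-wave genes that fell by 4 h had medians of -0.01 at 24 h and -0.15 at 48 h, and 15 of them fell again by 24 h. Over the 82 genes, the change from 4 h to 24 h was set against the direction of the step, not against the reference. Of the 32 higher ones 27 changed against the step, 3 with it and 2 had no call. Of the 50 lower ones 33 changed against the step, 10 with it and 7 had no call. Among the lower ones, Dusp1 fell again and so neared the reference, from 0.85 to 0.22. Gadd45g rose and so left it, from 0.03 to 0.29. Because the 4 h arrays enter both differences, these counts are a description.

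Promoters of RefSeq in build GRCr8 ran from 250 bases before to 50 after the start. Only the first listed start of each gene was used, and whether these cells use that start was not tested. The promoters were searched for the full CRE, TGACGTCA, and for its core, TGACG or CGTCA, on both strands. The full CRE contains the core on each strand. A full CRE stood in 3.2% of the 7651 tested genes with a promoter in the table and in 1.91% of all 27457 promoters, and a core in 32.5% and 22%. Among first-wave genes that fell it stood in 2 of 14 promoters, those of Btg2 and Dusp1, and a core in 4 of 14. Among those that rose further a full CRE stood in 0 of 11 and a core in 8 of 11, and among those without a called step a full CRE stood in 1 of 6, that of Cbx8. In the second wave up the counts were 0 of 9 for the full CRE and 3 of 9 for the core, and in the second wave down 1 of 12, that of Ccnl1, and 6 of 12. The promoters are few and a match is only a match of letters. Fos, Jun, Fst, Ier3, Nr4a3, Klf10, Atf3 and Bbc3, among others, had no promoter to search, so nothing is known here of their sites. The windows below, 60 bases each, are examples with the matched letters in capitals. They hold the full CRE in genes that fell or held and the core in genes that rose. A core without a full CRE also stood in genes that fell, Junb, Klf9 and Srf among them, whose windows are not shown.
Btg2 (chr13:48087856-48087915, minus strand): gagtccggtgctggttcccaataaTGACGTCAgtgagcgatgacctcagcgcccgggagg
Dusp1 (chr10:17184705-17184764, plus strand): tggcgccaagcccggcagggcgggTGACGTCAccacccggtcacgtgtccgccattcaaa
Ccnl1 (chr2:152507483-152507542, minus strand): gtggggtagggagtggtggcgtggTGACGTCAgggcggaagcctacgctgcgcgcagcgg
Cbx8 (chr10:104795543-104795602, minus strand): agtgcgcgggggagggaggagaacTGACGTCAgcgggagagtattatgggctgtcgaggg
Sik1 (chr20:9958802-9958861, minus strand): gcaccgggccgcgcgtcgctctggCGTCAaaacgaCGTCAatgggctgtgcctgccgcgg
Rgs2 (chr13:58352847-58352906, minus strand): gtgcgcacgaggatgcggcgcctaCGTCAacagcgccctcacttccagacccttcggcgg
Tac1 (chr4:36645353-36645412, plus strand): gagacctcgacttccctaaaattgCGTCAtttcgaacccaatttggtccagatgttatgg
Vip (chr1:44470359-44470418, plus strand): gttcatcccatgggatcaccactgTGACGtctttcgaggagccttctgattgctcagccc
Btg2, Dusp1 and Ccnl1 fell in the step, Cbx8 had no called step, and Sik1, Rgs2, Tac1 and Vip rose. These windows were picked, so no link between site and direction is read from them.

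Of 37 cAMP-responsive early genes, 30 passed the filter, and of these 17 fell and 8 rose, with a median difference of -0.276 beside -0.008 over all genes. Over all genes tested 10.1% fell and 5.55% rose, the shares to set beside this count and those of the lists below. With spike-in scaling 11 fell and 7 rose, and the median was -0.108. Beside the genes above, Ier2, an early gene of unsettled function, fell by 1 ± 0.2 from a mean of -0.03 to -1.02, and Nfil3, a leucine zipper repressor, rose by 0.43 ± 0.05. Among 29 measured components of the cyclic AMP pathway 6 rose, led by Crem, Rgs2, Pde10a and Sik1, and 2 fell. Pde4d, a phosphodiesterase specific for cyclic AMP, read 0.86, 0.9 and 1.1 at 2 h and 1.74, 1.91 and 1.94 at 4 h, without overlap (difference 0.91 ± 0.12, adjusted p = 0.00017). Prkar1a, a regulatory subunit that holds protein kinase A inactive, rose by 0.42 ± 0.06. Ep300, a coactivator of CREB, at -0.45 and Akap5, an anchor of the kinase, at -0.36 were the 2 that fell, and neither was called with spike-in scaling (adjusted p = 0.25 and 0.46). Creb1 at -0.16 and the catalytic subunit Prkaca at 0.03 were not called.

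Of 16 measured regulators of MAP kinase signalling 7 fell and 0 rose, the others having no called step, with a median of -0.265 (range over the 3 slides -0.302 to -0.209). Beside Dusp1 and Dusp5 these were Dusp2, which fell by 0.88 ± 0.09 from 0.6, 0.82 and 0.65 to -0.25, -0.12 and -0.19, and Spry1, Dusp6, Spred1 and Errfi1. With spike-in scaling 3 of the 16 fell and with median centring 4. Of 11 Kruppel-like factors 5 fell and 0 rose, Klf5 at -0.44 the smallest of them, and 4 of the 5 fell at least 2-fold. Spike-in scaling and median centring each called 4 of the 11 lower.

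In the activin, TGF-beta and BMP list 8 of 28 measured genes fell and 2 rose, Fst and Bambi. The 8 included Id1, Id2, Id3, Smad7 and Klf10, along with Fstl3, a relative of follistatin, Gdf15, a stress cytokine, at -0.7 and Skil, a corepressor of Smad proteins, at -0.47. The median of this list was -0.066 and turned to 0.101 with spike-in scaling, with 6 called lower and 2 higher. Of 23 p53 targets and apoptosis genes 9 fell and 2 rose, for a median of -0.157 that turned to 0.011 with spike-in scaling, where 2 fell and 1 rose. Bbc3 and Hrk, both activators of cell death, were among the falls, Hrk at -0.61 ± 0.07 with an adjusted p of 0.077 under spike-in scaling. Mcl1, which protects from death, rose by 0.31 ± 0.06 (0.15, 0.3 and 0.36 at 2 h against 0.54, 0.63 and 0.58 at 4 h).

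Neuropeptide and secretory granule genes leaned the other way, with 8 of 22 measured genes higher and 2 lower, and 7 and 1 with spike-in scaling. Beside Vip and Tac1, Scg2, a granin that gives rise to secretoneurin, read 0.61, 0.4 and 0.52 at 2 h and 1.55, 1.29 and 1.33 at 4 h (difference 0.88 ± 0.13, adjusted p = 0.0003). Pnoc, the precursor of nociceptin, rose by 0.85 ± 0.05, Pam, which amidates peptides, by 0.77 ± 0.1, Dbh, which makes noradrenaline, by 0.57 ± 0.08 and Vgf by 0.36 ± 0.07, and Th, the rate-limiting enzyme of catecholamine synthesis, was the last of the 8. Adm fell, as above, and Npy fell by 0.21, a call lost with spike-in scaling (adjusted p = 0.84). Calca, which encodes CGRP, at -0.06 and Adcyap1, which encodes PACAP, at 0.04 were not called. The median of the list was 0.057, and on slide 2 it was -0.02.

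Of 28 measured mitosis genes 15 fell and 0 rose, the other 13 having no called step, with a median of -0.18 and a range over the 3 slides of -0.255 to -0.142. Spike-in scaling left 4 called lower and a median of -0.012, and median centring 4 and -0.183. Espl1, the separase that releases sister chromatids, read -0.3, -0.2 and -0.19 at 2 h and -1.13, -1.14 and -1.02 at 4 h (difference -0.86 ± 0.08, adjusted p = 4.4e-06). Kif23, a motor of cytokinesis, fell by 0.84 ± 0.08, Cdc20, an activator of the anaphase-promoting complex, by 0.76 ± 0.06 and the kinase Plk1 by 0.66 ± 0.06. Mki67 at -0.06 and Top2a at 0.08 were not called. Among 30 genes of G1 and S phase 5 fell and 1 rose, with a median of -0.075, and with spike-in scaling 1 fell and 0 rose and the median turned to 0.093. Cyclin E1, Ccne1, led with a fall from -0.13, -0.12 and -0.08 to -0.82, -0.86 and -0.84 (difference -0.73 ± 0.05, adjusted p = 3.5e-07), although its other probe differed by -0.21. Mycn, which drives proliferation of neuroblastoma, fell from -0.39, -0.34 and -0.44 to -1.27, -1.32 and -1.32 (difference -0.92 ± 0.06, adjusted p = 1.4e-07).

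**Figure D3:**
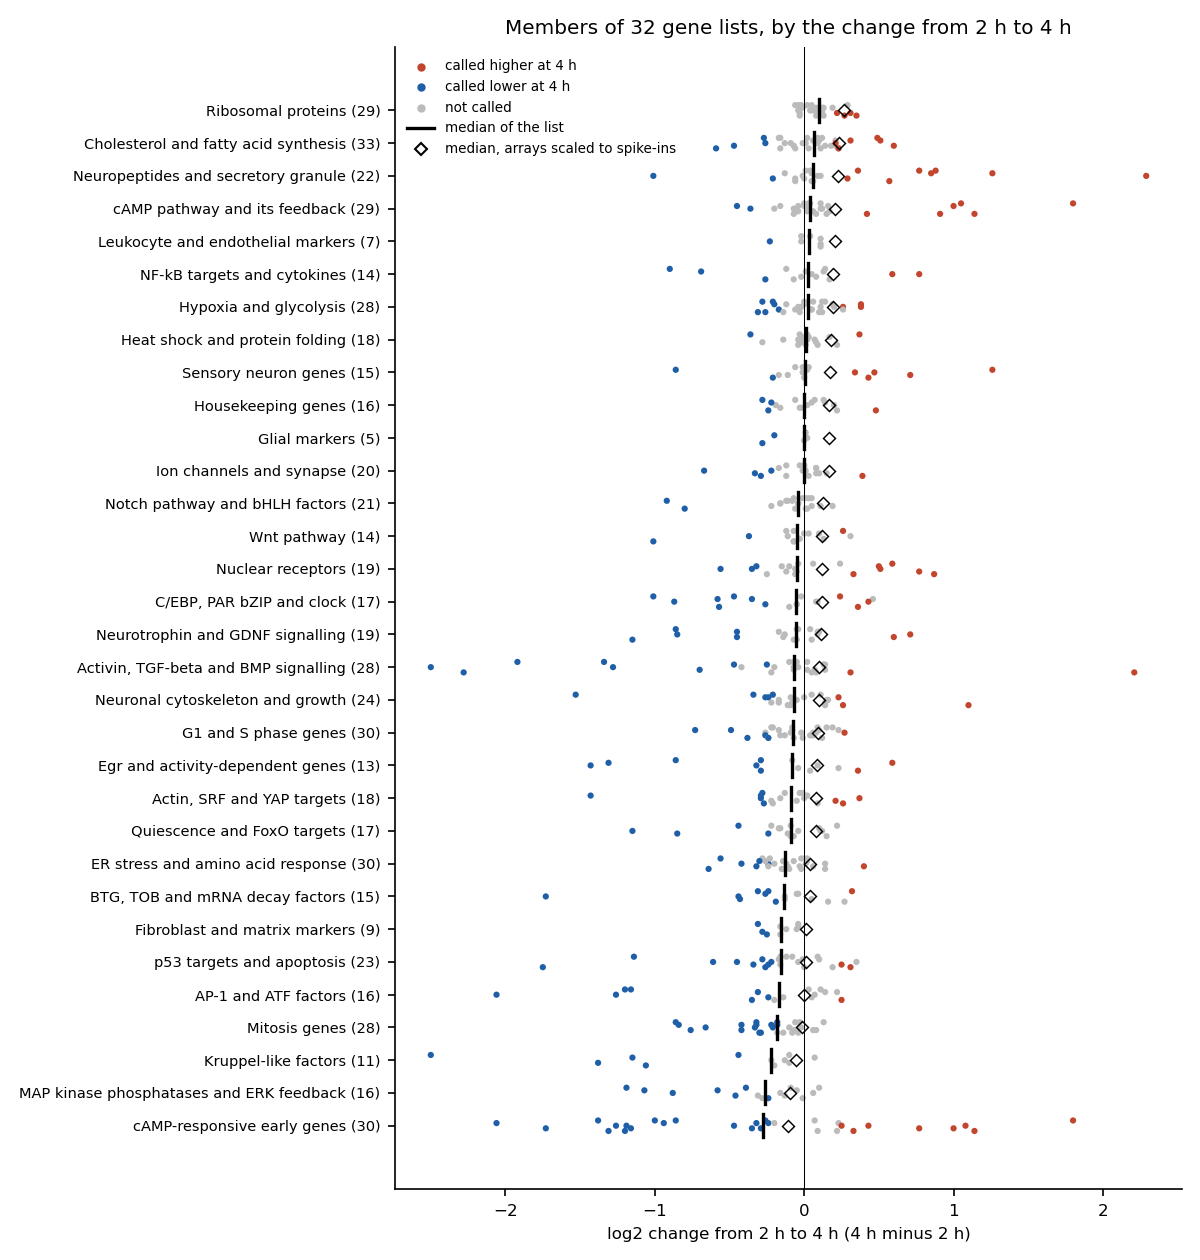
Log2 difference of 4 h minus 2 h for every measured member (points) of 32 gene lists, coloured by call, with the list's median (bar) and its median when arrays are scaled to the spike-in RNAs (diamond). The number in brackets counts the measured members. The cAMP-responsive early genes lie lowest, at a median of -0.276, and the ribosomal proteins highest, at 0.098. Every diamond lies to the right of its bar.

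Receptors and signalling genes of sensory neurons changed in both directions. Ret, the receptor of GDNF family ligands, read -0.2 on all 3 arrays of 2 h and -1.05, -1.1 and -1.02 at 4 h (difference -0.86 ± 0.06, adjusted p = 6.6e-07). Its other 2 probes differed by -0.19 and -0.16. Irs2, an adaptor of insulin receptors, fell by 0.85 ± 0.06, with its other 3 probes between -0.57 and -0.23. Runx1, a factor of nociceptor identity, rose from 0.48, 0.6 and 0.47 to 1.17, 1.22 and 1.28 (difference 0.71 ± 0.08, adjusted p = 3.3e-05). Isl1, a sensory neuron homeobox factor, rose by 0.43 ± 0.06 and Pou4f2 by 0.47 ± 0.07, while the voltage-gated sodium channel subunit Scn3b fell by 0.67 ± 0.06. Of 15 sensory neuron genes 5 rose and 2 fell, and 5 and 1 with spike-in scaling.

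Other lists held single large steps. In the clock list 7 of 17 fell and 3 rose, Bhlhe40 and Bhlhe41 furthest, with Bmal1 at -0.57 and Per2 at -0.47, and 2 fell and 3 rose with spike-in scaling. Among 19 nuclear receptors and their coactivators 6 rose and 3 fell, and 6 and 0 with spike-in scaling and 2 and 1 with median centring, while the median of -0.051 turned to 0.117 with spike-in scaling. Ppargc1b, a coactivator of energy metabolism, rose from 0.16, 0.2 and 0.17 to 0.92, 1.07 and 1.15. Nfkb1, the precursor of an NF-kB subunit, rose by 0.77 ± 0.08, and Nfkbia, the inhibitor of NF-kB, fell by 0.69 ± 0.06, from -0.39, -0.28 and -0.26 to -1.06, -0.96 and -0.97. Csf1, a growth factor of macrophages, fell by 0.9 ± 0.08, with its other probe at -0.29. In the list of cholesterol and fatty acid enzymes and regulators 6 of 33 rose and 4 fell, and 4 and 0 with spike-in scaling. Hmgcs1, an early enzyme of sterol synthesis, led with a rise from -0.18, -0.22 and -0.21 to 0.39, 0.39 and 0.41, a difference of 0.6 ± 0.08 that median centring did not call. Its other probe differed by 0.25.

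Of 15 BTG, TOB and mRNA decay factors 7 fell and 1 rose, and 1 and 1 with spike-in scaling. Of 13 Egr and activity-dependent genes 6 fell and 2 rose (3 and 2 with spike-in scaling), of 19 genes of neurotrophin and GDNF signalling 5 fell and 2 rose (3 and 2), and of 30 genes of ER stress 6 fell and 1 rose (1 and 1). With the slide as a replicate block 11 of the ER stress genes fell. Of 18 targets of SRF and YAP and actin genes 5 fell and 3 rose (1 and 1), of 24 genes of the neuronal cytoskeleton 5 fell and 3 rose (1 and 1), and of 28 genes of hypoxia and glycolysis 6 fell and 3 rose (0 and 2, and 6 and 5 with the replicate block). Of 20 ion channel and synapse genes 4 fell and 1 rose (1 and 1), and of 17 quiescence and FoxO targets 4 fell and 0 rose (2 and 0). Of 14 NF-kB targets and cytokines 3 fell and 2 rose (2 and 2), and of 14 Wnt genes 2 fell and 1 rose (1 and 0). Of 21 Notch and bHLH genes 2 fell and 0 rose (2 and 0), and of 18 heat shock genes 1 fell and 1 rose (0 and 1). Over all genes tested 10.1% fell and 5.55% rose. The Wnt list (14.3% and 7.14%), the falls of the Notch list (9.52%) and the heat shock list (5.56% each way) lie near those shares, so nothing is read from them. Among markers of other cells, 3 of 9 measured fibroblast and matrix genes fell, and Vwf among 7 of leukocytes and endothelium, and with spike-in scaling none of these was called (adjusted p = 0.78 for Vwf).

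Genes taken as stable stayed close to 0 but not all of them uncalled. Of 16 housekeeping genes 1 rose, Tfrc at 0.48, and 3 fell, Actb at -0.28 among them, with a median of 0.001. With spike-in scaling 1 rose and 0 fell. Of 29 ribosomal protein genes 4 rose and 0 fell, for a median of 0.098, and 1 rose with spike-in scaling. Gapdh differed by 0.05 and was not called.

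The reference channel, the same kind of RNA on every array, was steadier than the green one. Over all genes the SD of the log2 difference of 4 h minus 2 h was 0.07 in red and 0.206 in green. Only 2 genes moved by 1 or more in red, against 72 in green. Among the 32 genes that rose at least 2-fold, the median difference was 1.15 in green and -0.03 in red, and among the 50 that fell it was -1.15 and 0.03. The red rises of Fst, Crem and Vip went along with their green ones, so that their ratios understate the green change. In other genes the red channel moved against the green one, and the ratio overstates the green change. Fos moved by -0.91 in green and 0.25 in red, AA817984 by -1.2 and 0.51, and Ptges by 1.1 and -0.23.

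**Figure D4:**
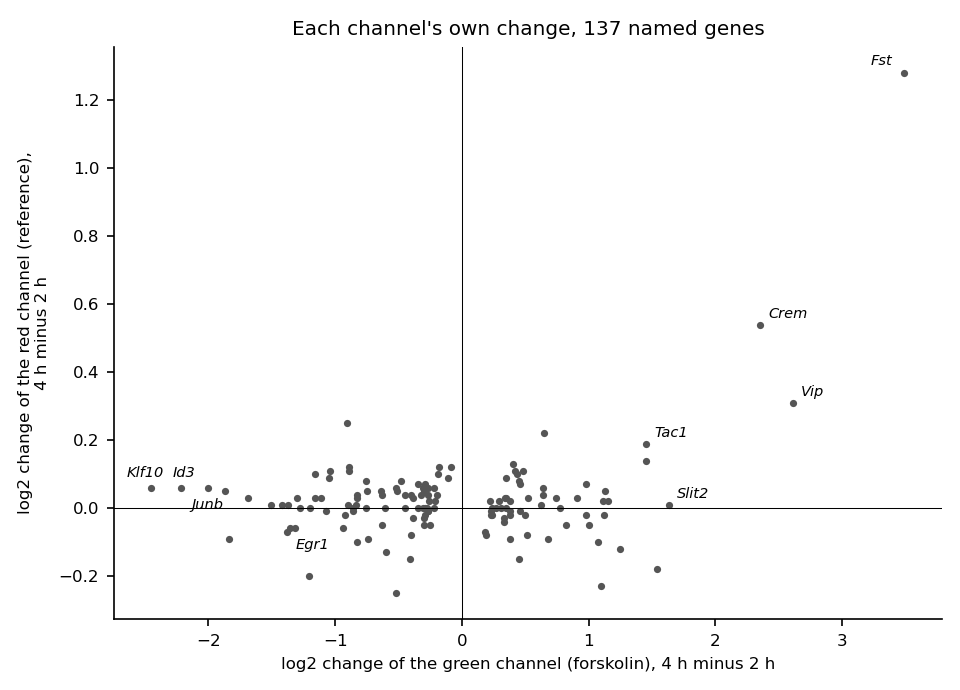
Log2 difference of 4 h minus 2 h in the green channel (forskolin, horizontal) and in the red channel (reference, vertical) for the 137 named genes, from means of 3 arrays per time. Most points lie close to 0 in red whatever their green value. Fst at 1.28, Crem at 0.54 and Vip at 0.31 stand out in red.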

How the data were processed

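Total RNA of 12 samples was hybridised to 2-colour rat oligonucleotide arrays, each forskolin sample (Cy3) against unstimulated reference (Cy5). The authors' spot intensities come, per the file headers, from version 9.5.1.1 of Feature Extraction, with build rn3. The submitters' processing notes name limma, with no role given. The deposited log2 values ran as red over green (r = -0.998 to -0.994 with the ratios used here, column medians 0.007 to 0.012), with their normalisation not given in the sources used here, and were used as an alternative.

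Here, in limma 3.58.1 under R 4.3.3 (reading with the package data.table, version 1.17.8), mean intensities were corrected with normexp (offset 50), normalised by loess within arrays without control spots, stripped of outlier spots and averaged per probe. Probes well above background in either channel on all 3 arrays of a time were kept, and the brightest probe stood for its gene. Ratios of 12 genes lacked an array. Symbols were updated through RefSeq genes of GRCr8, with 20912 probes keeping the file's name. A mean per time was fitted to all 12 arrays with lmFit and eBayes (8 residual degrees of freedom), and 4 h minus 2 h was tested with Benjamini-Hochberg adjustment. The log2 changes after offset 50 understate those of dim probes. Channels were compared after Aquantile scaling. The test was checked on simulated data with independent noise of the fitted spread and no slide effect. That check cannot show how the test does where arrays of a slide move together.

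The members and gene lists were chosen with earlier results of these data known. Genes named were the 15 largest rises and the 15 largest falls among called genes with a symbol and 1 sign on all 3 slides, up to 3 called members of each of 32 lists each way, and a set always given. Other list or class members were named as examples, some after their values were seen. Calls within the glial list are not reported here. Same-numbered samples shared a slide, per the file headers; their deviations correlated at 0.435, 0.053 and 0.248. Alternatives were the background correction, normalisation, filter, choice of probe, arrays fitted, a slide block, the deposited values and leaving out each array. Spike-in scaling and the green channel alone were added after seeing the data.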

Additional observations from a re-analysis of the deposited data

How the results depend on the processing

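All 82 genes with a step of at least 2-fold kept their call and direction under every alternative. Of the 137 called genes that the naming rule gave none reversed under any. Counts moved by over 1.5 times under 4 alternatives. With offset 0 the counts were 86 genes at least 2-fold higher, 104 at least 2-fold lower, 72 in the second wave up and 86 in the second wave down. With the processed signals they were 148, 219, 118 and 193, and 30 first-wave genes rose further. With median centring, 356 genes were called, 17 at least 2-fold higher, 5 first-wave genes fell and 5 rose further, and 12 and 18 made up the second wave up and down. Spike-in scaling, added after seeing the data, gave 631 calls, 54 at least 2-fold higher, 23 at least 2-fold lower, and 44 and 12 in the second wave up and down. The cause was not tested. The replicate block raised the calls from 2783 to 3492 as a fixed effect, with 2778 of the 2783 among them, and to 3293 as a random effect (consensus correlation 0.124); it lost no call of these 137 genes, and beyond the values printed above it moved 3 list counts by over 1.5 times, from 1 to 2 genes higher each: G1 and S phase, BTG, TOB and mRNA decay, and housekeeping. Leaving out 1 array gave 1858 to 2268 calls, 28 to 34 genes at least 2-fold higher and 44 to 51 lower, and 115 to 120 of the 137 named genes kept their call. With median centring 67 of them did and with spike-in scaling 85. Signal over background limited Fos, Fosl1, Tacr1, Pde10a and the second probes of Klf10 and Nr4a3, among others.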
